A study of Mus musculus with 4 samples.

Results

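Nuclear receptor genes were examined for regions of captured DNA that were lower in cultured muscle satellite cells after tamoxifen than after oil. The members are 44 genes chosen by name, and a region belongs to a gene when it overlaps the RefSeq gene body or the 2000 bp on either side of it. The genes hold 88 of the 39231 listed regions, and 28 of the 44 genes carry at least 1. The mice of one group were given tamoxifen, in daily doses of 150 µl at 20 mg/ml over 5 days, to switch on a Cre recombinase that removes Uhrf1, and those of the other group were given oil. Satellite cells, the stem cells of skeletal muscle, were taken from hindlimb muscle of mice aged 9 weeks in both groups and cultured for 3 days on Matrigel. The promoter that drives Cre, the alleles carried by the oil mice and the number of animals per library are not given in the sources used here. There is 1 methylated and 1 non-methylated library per treatment (4 in all), so no spread between mice or cultures can be estimated and no test was made.

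Per the file headers, the tamoxifen library held 25614791 tags after duplicate removal and the oil library 19534328, with redundant rates of 0.30 after tamoxifen and 0.45 after oil. The headers name the alignments only by treatment. They are read here as the captured, methylated part, and every statement on methylated DNA rests on that reading. The authors' caller listed only regions where oil was higher, so receptor genes with more captured DNA after tamoxifen are not analysed here. For a gene without a region the list gives no level in either library, so whether it was methylated is not known from it. Loss of Uhrf1, exposure to tamoxifen, and differences between animals, cultures or captures cannot be told apart with these libraries. Since tags also count copies of DNA, less methylation cannot be told apart from less captured DNA. Each fold is the authors' value for a region's summit and runs oil over tamoxifen, so a higher fold means less signal after tamoxifen. Tags are unscaled counts over that summit, limits are exact (Clopper-Pearson) 95% limits of the ratio (oil over tamoxifen tags, scaled for library size) that cover counting error only, and coordinates are GRCm38 (mm10). The summit is where the caller found oil highest, which biases the folds upward.

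Nuclear receptors are transcription factors that bind DNA through a zinc finger domain and, in many members, a small lipophilic ligand through a second domain. Steroid receptors mostly act as homodimers, whereas thyroid hormone, retinoic acid, vitamin D and fatty acid receptors pair with a retinoid X receptor on repeats of the sequence AGGTCA. In skeletal muscle, glucocorticoid, thyroid hormone, PPAR and estrogen-related receptors are known for roles in protein turnover, fibre type and oxidative metabolism. Methylation of CG dinucleotides, which Uhrf1 helps to copy to newly made DNA by recruiting Dnmt1, is what the MBD2 protein captures.

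None of the 60 start windows of receptor genes overlapped a listed region, against 0.757% of the windows of all protein-coding genes. With so low a background share, none among 60 is the likely outcome, and nothing is read from it. In 4 of 40 receptor genes with a listed start, a region lay within 2000 bp of an annotated start, against 8.32% of protein-coding genes. Because these are the starts nearest to a listed region, the 250 bases before each of them are printed here from RefSeq (GRCm38.p6), 5′ to 3′ on the gene's strand, with CG dinucleotides in capitals. They are the internal start of Hnf4a (chr2:163546905-163547154, plus strand), the start of Nr5a2 (chr1:136960449-136960698, minus strand), an internal start of Nr2f1 (chr13:78196450-78196699, minus strand) and the start of Nr1h2 (chr7:44553966-44554215, minus strand).
Hnf4a: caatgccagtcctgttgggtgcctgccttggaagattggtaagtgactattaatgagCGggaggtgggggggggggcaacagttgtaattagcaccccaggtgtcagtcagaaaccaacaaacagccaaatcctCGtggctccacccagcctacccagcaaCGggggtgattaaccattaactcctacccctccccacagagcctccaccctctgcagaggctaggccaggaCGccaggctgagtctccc
Nr5a2: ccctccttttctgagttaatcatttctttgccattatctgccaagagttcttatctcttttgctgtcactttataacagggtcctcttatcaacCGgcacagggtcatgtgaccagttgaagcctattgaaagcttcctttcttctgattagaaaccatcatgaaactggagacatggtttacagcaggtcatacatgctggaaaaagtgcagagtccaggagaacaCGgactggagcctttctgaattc
Nr2f1: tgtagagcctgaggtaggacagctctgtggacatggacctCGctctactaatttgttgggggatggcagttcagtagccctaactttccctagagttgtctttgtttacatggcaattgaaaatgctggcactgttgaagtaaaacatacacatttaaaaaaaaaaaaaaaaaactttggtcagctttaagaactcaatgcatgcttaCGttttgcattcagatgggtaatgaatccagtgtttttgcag
Nr1h2: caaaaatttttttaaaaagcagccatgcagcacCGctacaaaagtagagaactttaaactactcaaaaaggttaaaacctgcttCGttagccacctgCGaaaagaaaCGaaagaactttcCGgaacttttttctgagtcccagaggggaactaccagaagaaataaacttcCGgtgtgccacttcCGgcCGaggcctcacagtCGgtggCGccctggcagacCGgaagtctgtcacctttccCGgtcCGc

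These stretches hold 4 CG dinucleotides in Hnf4a, 2 in Nr5a2, 2 in Nr2f1 and 13 in Nr1h2. The sequence AGGTCA, searched on both strands, has 1 match in that of Nr5a2 and none in the other 3. The Hnf4a region lay 1064 bp upstream of its start and the Nr5a2 region 1522 bp upstream. In Nr1h2 the region lay 1373 bp downstream of the start, and in Nr2f1 1493 bp downstream. So the printed bases themselves are outside the regions.

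In the listed regions of the family, captured signal was lower after tamoxifen by a median factor close to that of other genes. The 88 receptor regions had a median of 12 tamoxifen tags and 45.5 oil tags, against medians of 13 tamoxifen and 50 oil tags in the 24423 regions of all protein-coding genes. Their median fold was 4.86 (quartiles 3.94 and 6.25), against 4.72 (3.77 and 5.99) for protein-coding genes. After scaling, the median receptor region kept 19.1% of the oil signal after tamoxifen, against 19.6% in protein-coding genes. Unscaled tamoxifen tags were lower than oil tags in all 88 receptor regions. Because the list holds only regions called higher in oil, this was largely set by the selection and is no separate result. A fold of 10 or more was found in 3 regions (3.41%), those of Hnf4a, Nr5a2 and Ppara, against a background of 2.11% of protein-coding regions, and with 3 regions nothing is read from this difference.

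**Figure D1:**
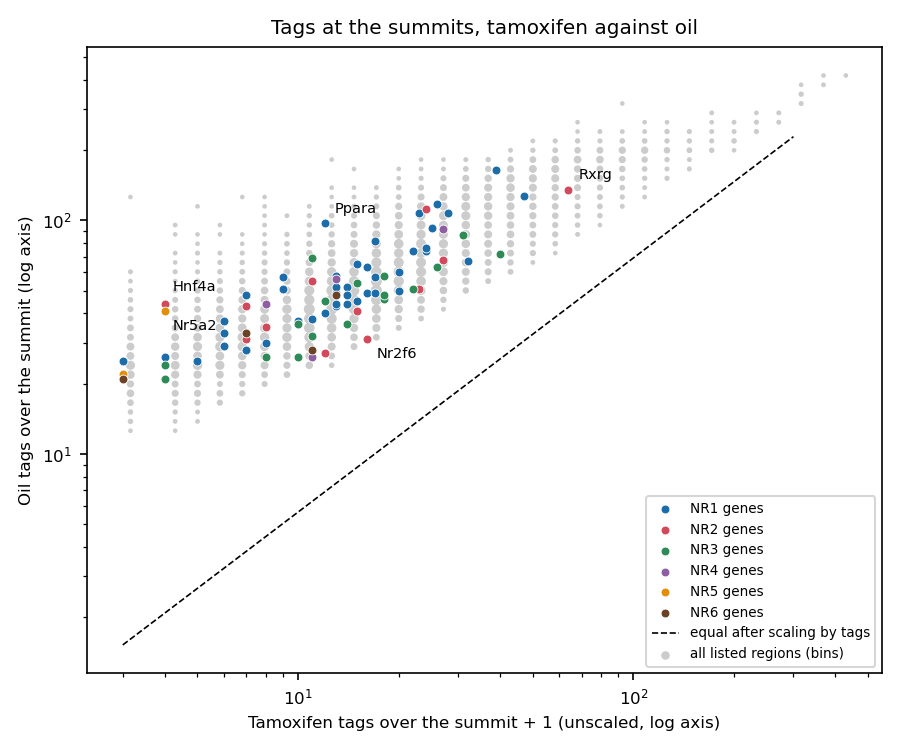
Unscaled tamoxifen tags plus 1 (horizontal, log axis) against oil tags (vertical, log axis) at the summits of the 88 receptor regions, coloured by subfamily, over bins of all 39231 listed regions in grey (larger dots hold more regions). The dashed line marks equal signal after scaling. The receptor regions lie above it, with Hnf4a and Nr5a2 at 3 tamoxifen tags and Rxrg, the member region with most tamoxifen tags, at 63.

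Of the 44 receptor genes, 28 (63.6%) carried a region, against 45.2% of all 21887 protein-coding genes. Receptor genes are longer (median 48.4 kb against 17.2 kb), and longer genes carry regions more often. By length, 7 of 12 receptor genes under 20 kb carried a region against 27.0% of protein-coding genes of that length. Between 20 and 100 kb it was 13 of 20 against 61.0%, and at 100 kb or more 8 of 12 against 84.9%. Per 100 kb of gene and flanks, receptor genes held 1.65 regions and protein-coding genes 2.24. These densities are not matched for gene length. Rora (2.03) and Esrrg (1.8) fall under 2.24, yet both held more regions than the upper quartile of genes of like length. The shortest and the longest class hold 12 receptor genes each, and the differences from the background shares were not tested.

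**Figure D2:**
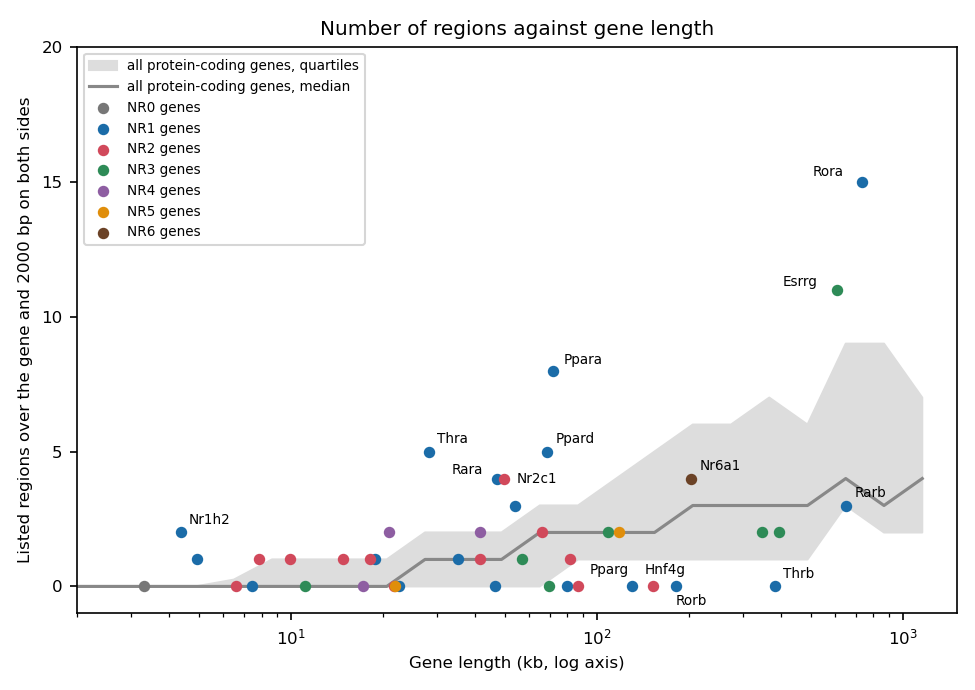
Number of listed regions (vertical) against gene length in kb (horizontal, log axis) for the 44 receptor genes, coloured by subfamily, with the median and quartiles of all protein-coding genes of like length in grey. Rora (15 regions), Esrrg (11), Ppara (8), Ppard (5) and Thra (5) lie above the grey band, while Thrb, Rorb, Pparg and Hnf4g, all over 100 kb, have none.

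The counts were uneven within the family. Rora, Esrrg and Ppara together held 34 of the 88 regions (38.6%), 8 genes had 4 or more, and 10 genes had 1. Set against protein-coding genes of like length, 11 of 44 receptor genes had more regions than the upper quartile, as did 17.6% of all protein-coding genes. They were Rora, Esrrg, Ppara, Ppard, Thra, Rara, Nr2c1, Vdr, Nr4a1, Nr1h2 and Nr1i3. For Nr1h2 and Nr1i3 the upper quartile is 0, so that 1 region is enough to exceed it. In 15 receptor genes the lower quartile was above 0, and 6 of these (40.0%) fell under it, with no region, against 18.2% of protein-coding genes. These 6 were Thrb, Rorb, Pparg, Hnf4g, Rxra and Nr1h4. The lower quartile is 1 for each of them, so falling under it means only having no region. The differences from the background shares were not tested.

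Some close relatives differed in whether they carried a region. With 28 of 44 receptor genes carrying one, many pairs differ whatever their relation. Whether relatives differ more often than other pairs was not tested. Lengths are unlike as well: the gene with regions was the longer in some pairs (Esrrg 606 kb, Esrra 11.1 kb) and the shorter in others (Thra 28.2 kb, Thrb 381 kb). Thra had 5 and Thrb none, Rora 15 and Rorb none, Esrrg 11 and Esrra none, Hnf4a 2 and Hnf4g none, and Nr5a2 2 and Nr5a1 none. Among the PPAR genes, Ppara had 8, Ppard 5 and Pparg none. Every listed gene carried a region in the COUP-TF group (Nr2f1, Nr2f2, Nr2f6), in the TR2/TR4 group (Nr2c1, Nr2c2) and in the estrogen receptor pair (Esr1, Esr2). By subfamily, regions were found in 11 of 18 NR1 genes (48 regions), 8 of 12 NR2 genes (12 regions), 5 of 7 NR3 genes (18 regions), 2 of 3 NR4 genes (4 regions), 1 of 2 NR5 genes (2 regions), in Nr6a1 (4 regions), and not in Nr0b2. Of all protein-coding genes 45.2% carried a region, and the subfamily shares are neither matched for gene length nor tested. Median folds ran from 4.03 in NR3 to 10.1 in NR5, which has only 2 regions.

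**Figure D3:**
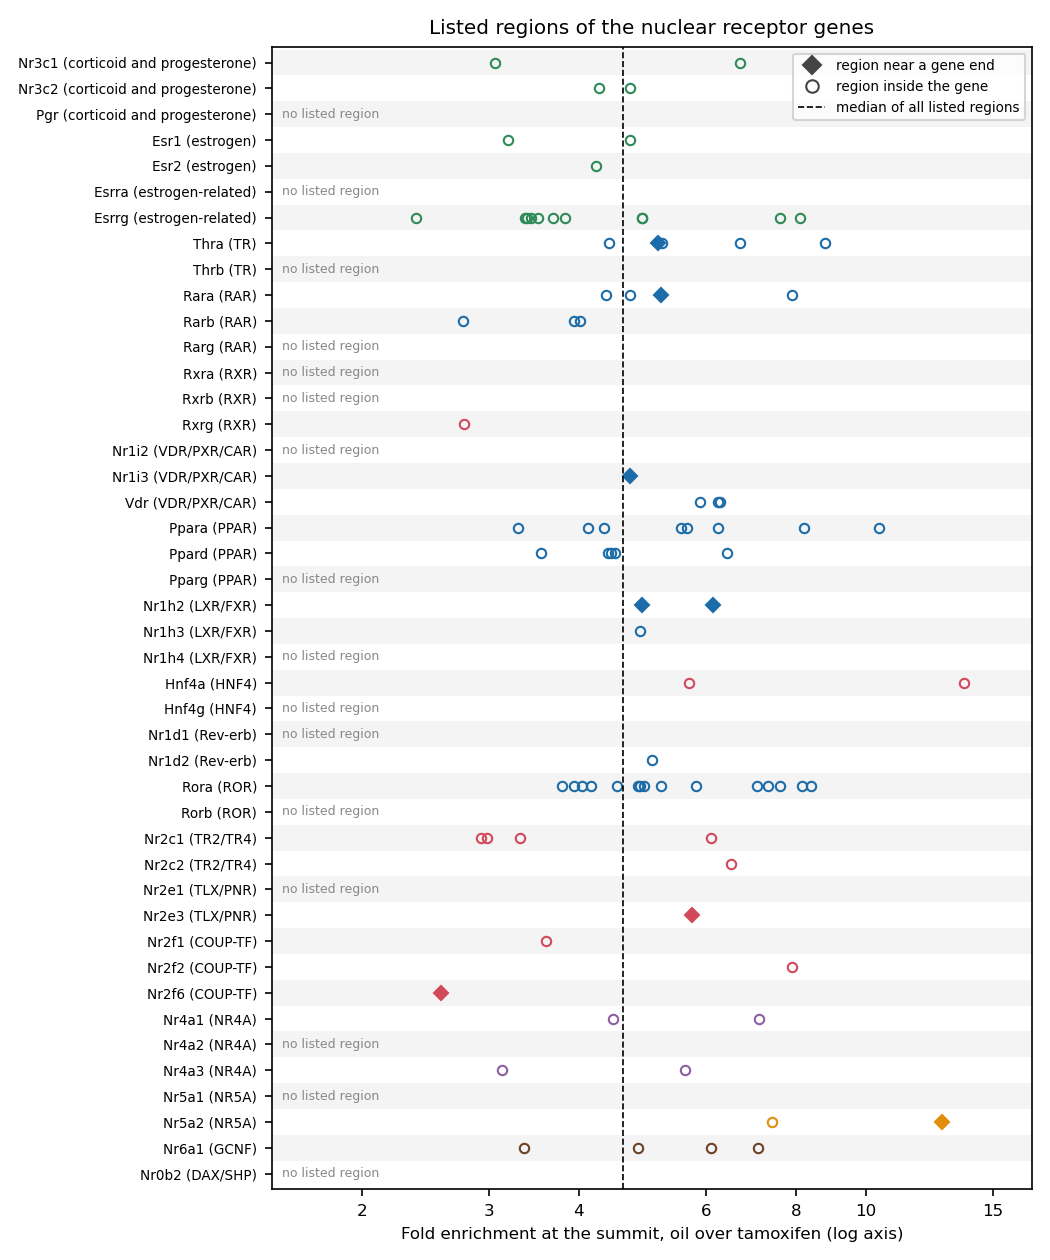
Fold enrichment of each receptor region (horizontal, log axis, oil over tamoxifen) by gene, with regions near a gene end as diamonds and regions inside the gene as open circles, coloured by subfamily. The dashed line is the median of all listed regions (4.61). The 16 genes without a region are marked, and the highest folds are at Hnf4a (13.69) and Nr5a2 (12.77).

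Steroid receptor genes with regions had 1 or 2 each, all inside the gene. The glucocorticoid receptor gene Nr3c1 (109 kb) had 2 regions on chromosome 18. The region from 39467034 to 39467249 had 3 tamoxifen tags against 21 oil tags (fold 6.69, limits 2.74 to 48.1), and that from 39469932 to 39470147 had 21 against 51 (3.06, 1.88 to 5.57). The mineralocorticoid receptor gene Nr3c2 (347 kb) had 2, with 9 tamoxifen tags against 36 oil tags (fold 4.71, limits 2.48 to 12.4) in the stronger and 7 against 26 (4.26) in the other. The progesterone receptor gene Pgr (69.7 kb) had none, and the nearest region lay 263009 bp away. In the estrogen receptor alpha gene Esr1 (394 kb) the stronger of 2 regions had 14 tamoxifen tags against 54 oil tags (fold 4.71, limits 2.77 to 9.86) and the other 25 against 63 (3.19). Esr2, which encodes estrogen receptor beta, had a region of 17 tamoxifen tags against 58 oil tags (fold 4.22, limits 2.57 to 8.20).

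Estrogen-related receptors have no known natural steroid ligand and drive genes of mitochondrial metabolism. Esrrg (606 kb, chromosome 1) had 11 regions, all inside, with folds from 2.37 to 8.11. The highest, from 187904459 to 187904758, had 10 tamoxifen tags against 69 oil tags (limits 4.64 to 19.7), and a region 566 bp further on had 11 against 45 (fold 4.90). The lowest of all 88 receptor regions, from 187876635 to 187876835, had 39 tamoxifen tags against 72 oil tags (fold 2.37, limits 1.62 to 3.67) and so kept 41.3% of the oil signal after scaling. The limits of these extremes do not overlap, but they were picked as the highest and lowest of 11. Esrra (11.1 kb) had no region, the nearest being 13417 bp away.

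The thyroid hormone receptor genes, whose products set metabolic rate and muscle fibre type, differed from each other in region count. Thra, which encodes the alpha receptors (28.2 kb, chromosome 11, 98740776 to 98769006), had 5 regions, or 15.5 per 100 kb of gene and flanks. The strongest, from 98756919 to 98757175, had 6 tamoxifen tags against 48 oil tags (fold 8.79, limits 4.48 to 30.0), above 95.7% of all listed regions. The region just outside its lower-coordinate end, from 98739593 to 98739837, had 15 tamoxifen tags against 63 oil tags (fold 5.14, limits 3.10 to 10.4). The other 3, all inside, had folds of 4.41 to 6.69. Thrb, the beta receptor gene, is 381 kb long and had none within the gene or flanks. Nr1d1, which encodes the clock repressor Rev-erb alpha and overlaps the far end of Thra, shared none of the Thra regions. The lists give no receptor RNA, so nothing can be said about expression of either gene.

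Among retinoic acid receptor genes, which bind the active form of vitamin A, counts were uneven too. Rara (47.1 kb, chromosome 11) had 4 regions, 3 of them in the last part of the gene. Its strongest, from 98970074 to 98970329, had 5 tamoxifen tags against 37 oil tags (fold 7.90, limits 3.80 to 31.6), and that at its finish, from 98973921 to 98974140, had 6 against 28 (5.20, 2.49 to 18.1). The other 2 had folds of 4.37 and 4.71. Rarb (651 kb as annotated) had 3 interior regions, the strongest with 15 tamoxifen tags against 49 oil tags (fold 4.02, limits 2.36 to 8.22) and the others at 3.94 and 2.76. The 2.76-fold region is inside the annotated body but 362901 bp upstream of the listed Rarb start. Rarg (22.6 kb) had none. Of the retinoid X receptors, the shared partners of many NR1 receptors, Rxra and Rxrb had none. Rxrg had a single broad region of 558 bp with the most tamoxifen tags of any receptor region, 63 against 135 oil tags (fold 2.77, limits 2.07 to 3.85), so that 35.6% of the oil signal remained after scaling. The nearest region to Rxra lay 3866 bp from the gene (8 tamoxifen tags against 44 oil tags, fold 6.34), beyond the flank counted here.

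PPARs are fatty acid sensors, and 2 of their 3 genes carried many regions. Ppara (71.9 kb, chromosome 15), a regulator of fatty acid oxidation, had 8 regions, all inside. Its strongest, from 85801583 to 85801839 near 92.9% of the gene's length, had 11 tamoxifen tags against 97 oil tags (fold 10.44, limits 6.18 to 23.9). The most heavily covered, from 85774794 to 85775160, had 38 tamoxifen tags against 165 oil tags (fold 5.54, limits 3.98 to 8.33), the most oil tags of any receptor region. The remaining 6 had folds from 3.29 to 8.21. The 3.29-fold region lay 476 bp before the strongest one, with 19 tamoxifen tags against 50 oil tags (limits 2.00 to 6.20), while the strongest kept 8.65% of the oil signal after scaling. They are the lowest and highest of the 8, and their limits overlap slightly. Ppard (68.7 kb, chromosome 17), the PPAR most abundant in muscle, had 5 interior regions, the strongest at 4 tamoxifen tags against 25 oil tags (fold 6.42, limits 2.83 to 32.4) and the others from 3.55 to 4.49. Pparg, the adipogenic PPAR gene (130 kb), had none, and the nearest region was 14575 bp away.

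**Figure D4:**
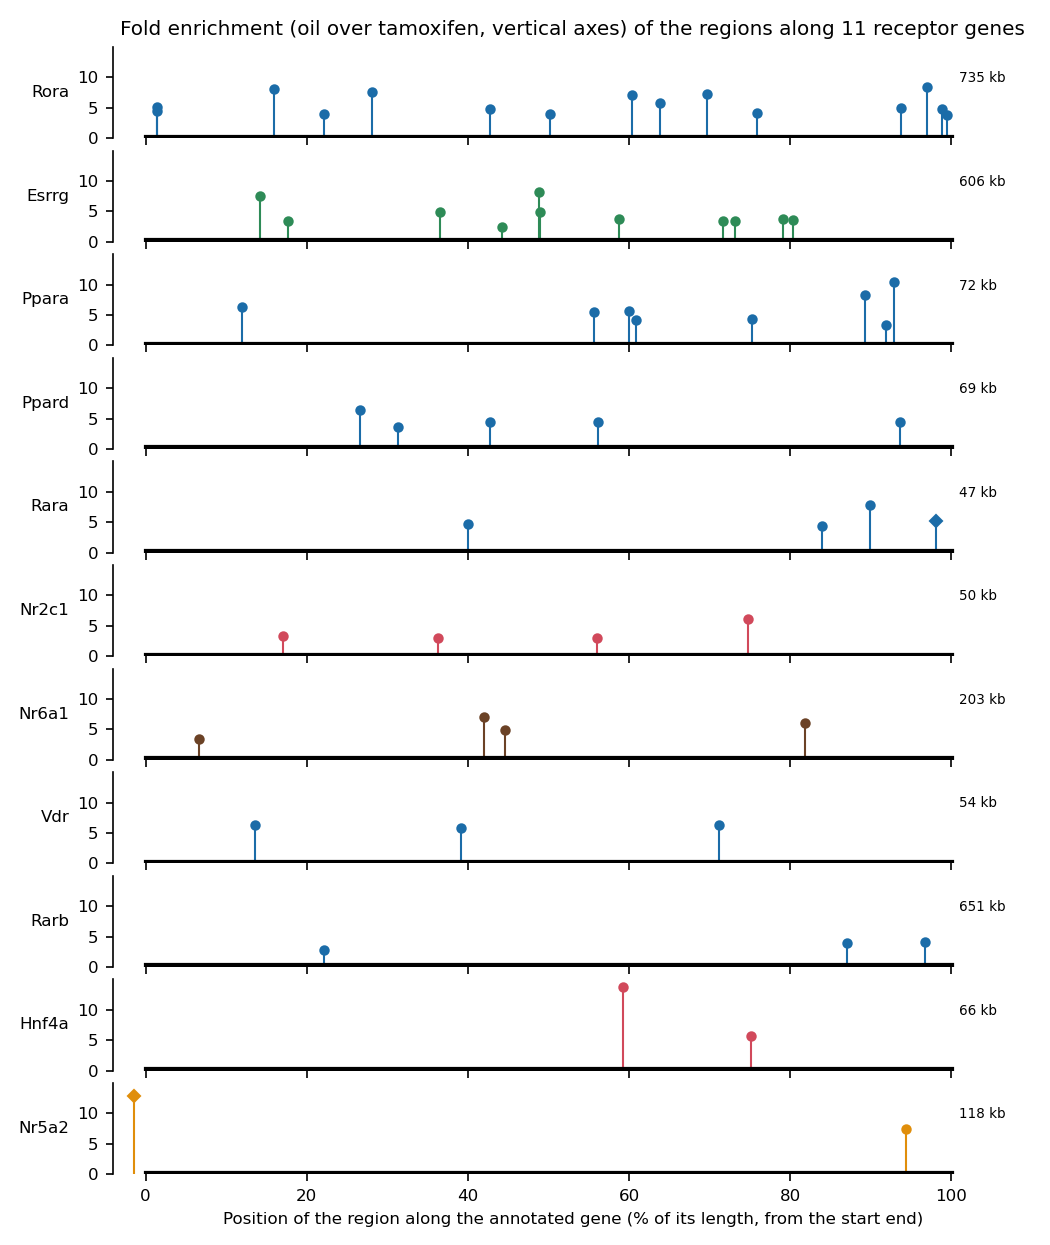
Position of each region along 11 receptor genes (horizontal, % of the annotated gene length from its start end) and its fold (vertical axes, oil over tamoxifen). The genes are those with 3 or more regions and a known strand, plus Hnf4a and Nr5a2; diamonds are regions near a gene end, and gene lengths are at the right. Nr5a2 has a region of 12.77-fold just before the gene, whereas the 15 regions of Rora are spread over its length and none is near an end.

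Other receptors for lipids, bile acids, vitamin D and foreign compounds carried fewer regions by count, and some of their genes are short. Per 100 kb of gene and flanks, Nr1h2, Nr1h3 and Nr1h4 together held 2.62 regions. For Vdr, Nr1i2 and Nr1i3 it was 3.41, and for the PPAR genes 4.61. These densities too are not matched for gene length. Vdr, the vitamin D receptor gene (53.9 kb, chromosome 15), had 3 interior regions of closely similar fold, 6.29 (16 tamoxifen tags against 82 oil tags, limits 3.90 to 12.3), 6.23 (5 against 29) and 5.88 (25 against 117). Nr1h2, which encodes the oxysterol receptor LXR beta, is only 4.35 kb long and had 2 regions, both within 2000 bp of a gene end. Nearly all of so short a gene lies within 2000 bp of an end, so this follows from its length. That from 44551996 to 44552592 had 22 tamoxifen tags against 108 oil tags (fold 6.13, limits 4.04 to 10.7), and that from 44550384 to 44550611 had 7 against 30 (4.89, 2.42 to 15.2). Its relative Nr1h3, LXR alpha, had an interior region of 24 tamoxifen tags against 93 oil tags (fold 4.87, limits 3.22 to 8.33). That region is inside the annotated body but 4442 bp upstream of the nearest listed Nr1h3 start. The bile acid receptor gene Nr1h4 and the xenobiotic receptor gene Nr1i2 had none. Nr1i3, a xenobiotic receptor gene of 4.91 kb, had a region near its finish that also overlaps the neighbouring gene Tomm40l, with 9 tamoxifen tags against 36 oil tags (fold 4.71, limits 2.48 to 12.4).

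Hnf4a, best known as a regulator of liver and gut genes (66.1 kb, chromosome 2), had the highest fold of the family within flanks of 2000 bp. With flanks of 5000 bp a region 4036 bp from Nr2f2 was higher (4 tamoxifen tags against 57 oil tags, fold 14.32). The Hnf4a region from 163545851 to 163546091 had 3 tamoxifen tags against 44 oil tags (fold 13.69, limits 6.16 to 96.8), above 99.7% of all listed regions, and 5.20% of the oil signal remained after scaling. This is the region upstream of the internal start printed above. A further region, from 163556360 to 163556581, had 7 tamoxifen tags against 35 oil tags (fold 5.68, limits 2.87 to 17.5). Hnf4g (152 kb) had none. With 3 tamoxifen tags the size of the difference at the first region is poorly fixed, as its limits show.

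Among clock-linked receptors, Rora held most of the regions. The gene (735 kb, chromosome 9), which encodes an activator that competes with Rev-erb proteins for the same sites, had 15 interior regions with folds from 3.79 to 8.39 (median 4.93). The highest, from 69365996 to 69366224, had 2 or fewer tamoxifen tags against 25 oil tags, and its fold was set by the genome mean that the caller uses as its lowest background. The next, from 68770909 to 68771184, had 8 tamoxifen tags against 57 oil tags (fold 8.17, limits 4.44 to 22.7). Across the 15, tamoxifen tags ran from 2 or fewer to 23 and oil tags from 24 to 76. Rorb (181 kb) had none. Of the Rev-erb genes, Nr1d2 had an interior region of 27 tamoxifen tags against 108 oil tags (fold 5.05, limits 3.41 to 8.32), and Nr1d1 had none within its flanks, the nearest lying 3073 bp away (25 against 130 tags, fold 6.53).

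Among orphan receptor genes of the NR2 subfamily, Nr2c1, the TR2 repressor gene (49.7 kb), had 4 interior regions and the others 1 or none. Its strongest had 23 tamoxifen tags against 112 oil tags (fold 6.09, limits 4.05 to 10.5), and the other 3 lay from 2.93 to 3.31. Nr2c2, the related TR4 gene, had 10 tamoxifen tags against 55 oil tags (fold 6.49, limits 3.64 to 15.9). Among the COUP-TF genes, which act in mesoderm and neural development, Nr2f2 had a region of 6 tamoxifen tags against 43 oil tags (fold 7.89, limits 3.98 to 27.0). Nr2f1 had one of 14 against 41 (fold 3.60, limits 2.05 to 7.63). Nr2f6, in which the region lay near the finish, had 15 tamoxifen tags against 31 oil tags (fold 2.57, limits 1.42 to 5.40). That region was the closest of the 88 to the authors' limit of q = 1e-04, with a -log10 q of 4.28. The photoreceptor gene Nr2e3 had a region at the start end of its annotated body, 10344 bp before its listed start (6 tamoxifen tags against 31 oil tags, fold 5.74, limits 2.78 to 19.9), and the neural stem cell gene Nr2e1 had none.

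The NR4A genes are immediate early genes that respond to exercise and other stimuli in muscle. Nr4a1 (20.9 kb, chromosome 15) had 2 regions 190 bp apart, both 3294 bp or more past the listed start. The first, from 101270140 to 101270564, had 26 tamoxifen tags against 92 oil tags (fold 4.47, limits 2.97 to 7.47), and the second, from 101270755 to 101271018, had 7 against 44 (7.10, 3.68 to 21.7). Their limits overlap. Nr4a3 had 2 regions in the first part of the gene, at 12 tamoxifen tags against 56 oil tags (fold 5.61, limits 3.24 to 12.5) and 10 against 26 (3.13). Nr4a2 had none, and the nearest listed region was 175345 bp away.

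Nr5a2, which encodes LRH-1, a receptor of liver, gut and early embryos, had the second highest fold of the family within flanks of 2000 bp. The region from 136961970 to 136962250 of chromosome 1, upstream of the start printed above, had 3 tamoxifen tags against 41 oil tags (fold 12.77, limits 5.72 to 90.5), above 99.5% of all listed regions. Its other region, near 94.4% of the gene's length, had 2 or fewer tamoxifen tags against 22 oil tags (fold 7.42). The nearest region not counted for the gene lay 2162 bp from it, just past the flank, with 14 tamoxifen tags against 41 oil tags (fold 3.60). Nr6a1, the germ cell nuclear factor gene that silences pluripotency genes on differentiation (203 kb), had 4 interior regions with folds of 3.36 to 7.10, of which 3 overlap the antisense gene Nr6a1os. Its highest-fold region had 2 or fewer tamoxifen tags against 21 oil tags. The steroidogenic factor gene Nr5a1 and the short gene Nr0b2, which encodes the repressor SHP, had none.

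Regions near gene ends were found in 7 of 44 genes (15.9%), Nr5a2, Nr1h2, Nr2e3, Thra, Rara, Nr1i3 and Nr2f6, a share near the 18.4% of protein-coding genes. With 5000 bp in place of 2000 bp the count was 17. Regions in the interior were found in 24 genes (54.5%), against 35.5% of protein-coding genes. Of the 88 regions, 8 (9.09%) were near an end and 80 inside, whereas 17.0% of the regions of protein-coding genes were near an end. None of these shares is matched for gene length. The fixed 2000 bp ends make up less of a longer gene, and receptor genes are longer (median 48.4 kb against 17.2 kb). In the short genes Nr1h2 (4.35 kb) and Nr1i3 (4.91 kb) the ends cover most of the gene, so their regions count as near an end largely by length. Whether the shares differ at like length was not tested. The end regions had a median of 8 tamoxifen tags and 33.5 oil tags and a median fold of 5.17, and the interior ones 12 tamoxifen tags, 48 oil tags and a fold of 4.83. Over all protein-coding genes the medians were alike, with 13 tamoxifen tags in both, and folds of 4.73 near an end and 4.72 inside. The receptor difference rests on 8 end regions, was not tested, and nothing is read from it. In genes with a known strand, the gene body was split into 3 equal parts from its start: 18 receptor regions lay in the first, 25 in the middle and 37 in the last (46.2%). For protein-coding genes 42.4% lay in the last part, so in both sets the part toward the finish held the most regions.

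Starts could be placed for 40 of the 44 genes, with 60 windows of 250 bases before to 50 after a start, and Thra, Nr3c1, Nr5a1 and Hnf4g had no entry. None of the 60 windows overlapped a listed region, while 0.757% of 21263 windows of protein-coding genes did, a share too low for a difference to show in 60 windows. A region within 2000 bp of a start was found in 4 of 40 receptor genes, against 8.32% of protein-coding genes with an entry. The receptor windows held a median of 13.5 CG dinucleotides, against 13 over all windows. The median was 15 in the 39 windows of genes with a region and 12 in the 21 windows of genes without. The most CG-rich of the 60 windows belonged to Rxra (55 CG), a gene without a region, followed by that of Nr2f6 (53 CG). AGGTCA was found on either strand in 11 of 60 receptor windows (18.3%), against 14.7% of all windows. It was in 5 of 39 windows of genes with a region and in 6 of 21 of genes without. The 39 windows belong to 26 genes and the 21 to 14, and some windows of a gene overlap, so they are not independent. The differences in CG count and in AGGTCA between these windows were not tested.

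**Figure D5:**
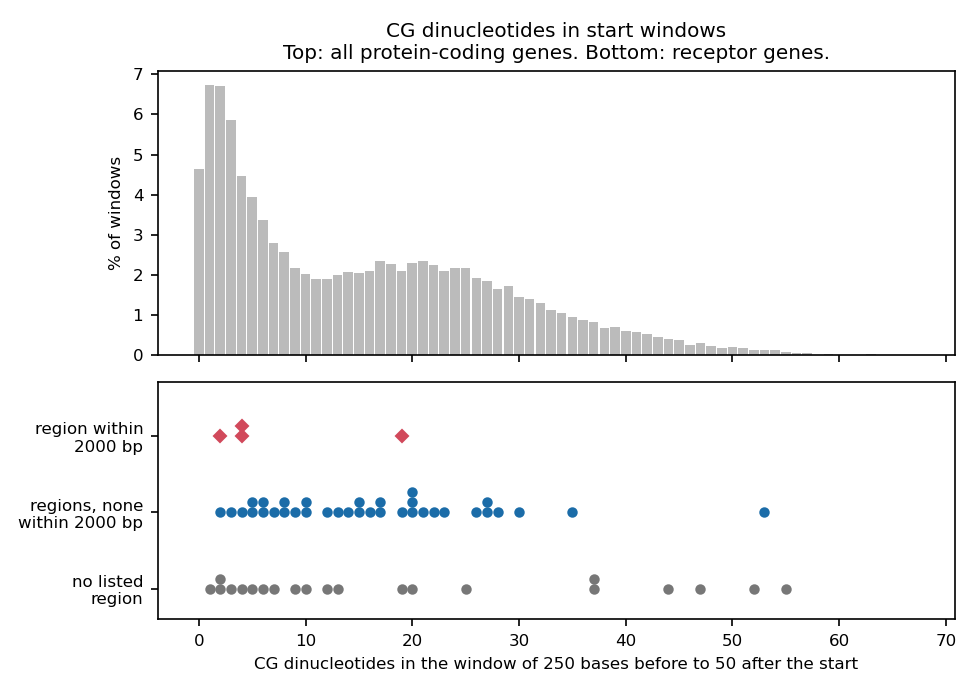
CG dinucleotides per start window of 250 bases before to 50 after the start (horizontal) as the percentage of all protein-coding windows (top) and for the 60 receptor windows (bottom, points stacked only where values coincide). The 4 windows with a region within 2000 bp hold 2, 4, 4 and 19 CG, and windows of genes with and without a region overlap over most of the range.

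Proteins that work with the receptors were examined from 6 lists. Of 60 such genes measured, 33 carried a region, against 45.2% of protein-coding genes, and 9 carried one near a gene end, against 18.4%. They held 110 regions with a median fold of 4.85. Longer genes carry regions more often, and neither these shares nor those of the single lists are matched for gene length. Differences between lists, or from the background, were not tested. Corepressor genes carried a region in 6 of 10 cases and coactivator genes in 11 of 15. In the corepressor list, only Gps2, a subunit of the NCoR complex, had a region near a gene end (12 tamoxifen tags against 51 oil tags, fold 5.12, limits 2.93 to 11.5). Near an end of Pprc1, a coactivator gene related to PGC-1, the region had 2 or fewer tamoxifen tags against 49 oil tags (fold 16.13, with the genome mean as background). The other coactivator genes with end regions were Ncoa1 (13 against 52 tags, fold 4.86), the arginine methyltransferase gene Carm1 (6 against 25, fold 4.66) and the acetyltransferase gene Ep300 (10 against 29, fold 3.48).

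Picked after their values were seen, genes of these lists with many regions included the PGC-1 alpha gene Ppargc1a (11 regions, highest fold 9.47) and the corepressor gene Nrip1 (10 regions). Genes that make, bind or break down retinoids carried regions in 9 of 14 cases (background 45.2%), with 3 near a gene end (background 18.4%). These were Lrat, whose enzyme stores retinol as an ester (10 tamoxifen tags against 38 oil tags, fold 4.52), the retinol dehydrogenase gene Rdh10 (54 against 179, fold 4.27) and the retinoic acid binding protein gene Crabp1 (15 against 37, fold 3.05). Against the same background of 45.2%, thyroid hormone handling genes carried a region in 1 of 6 cases, with the deiodinase genes Dio1, Dio2 and Dio3 all without a region. For steroid and vitamin D handling it was 4 of 7, none near an end. Receptor chaperones carried a region in 2 of 8 cases, both co-chaperone genes, Fkbp5 near an end (3 tamoxifen tags against 24 oil tags, fold 7.60, limits 3.19 to 54.4) and Fkbp4 inside. The Hsp90 genes Hsp90aa1 and Hsp90ab1 had none.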

How the data were processed

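The deposited file is a list of regions that, per the file headers, the authors called with MACS 2.2.6, with oil as treatment and tamoxifen as control input, 1 tag kept per position, tags extended to 201 bp, the larger library scaled to the smaller and a q limit of 1e-04. Trim Galore, HISAT2 and mm10 come from the submitters' processing notes. The deposited pileup is a signal, the oil tags over the summit. The authors' fold is a ratio, oil signal plus 1 over scaled tamoxifen signal plus 1. The headings of 2 columns were lost, and they were read as the authors' -log10 p and -log10 q values. These p-values and q-values compare libraries, not conditions.

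Tamoxifen tags were recovered from pileup and fold with the library factor of 0.763. They were whole within 0.02 tags in 38251 regions, and in the other 980 the genome mean of 2.10 scaled tags stood in, so that 2 or fewer tags lay there. The members and lists were chosen with earlier results of these data known. Regions were placed by 1 bp of overlap on RefSeq GRCm38.p6 genes, whose primary assembly is that of mm10, and a region within 2000 bp of either gene end is near an end. Starts and strands come from RefSeq promoter windows. Each member with regions is given by its highest-fold region and its highest-fold region near an end, and from each cofactor list up to 4 genes, those with the highest fold near an end. The background for counts is all protein-coding genes. The placing of regions and the recovery of tags were tested on simulated data. Python 3.11.15, pandas 2.3.3 and scipy 1.17.1 were used. The non-methylated libraries were not analysed here. A gene of the cofactor lists is counted but not reported by name here.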

Additional observations from a re-analysis of the deposited data

How the results depend on the processing

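Under a q limit of 1e-06 or 1e-10, region midpoints, no flanks, flanks of 5000 bp or unscaled tamoxifen tags, 26 to 30 receptor genes carried a region (28 as reported). Nr2f6 lost its region at both stricter limits and with unscaled tags, and Nr2f1 at 1e-10. With 5000 bp for flanks and ends, Nr1d1 and Rxra gained a region, and genes with a region near an end came to 17 in place of 7, and the highest fold of Nr2f2 was 14.32 in place of 7.89, above that of Hnf4a (13.69). Without flanks they were 5, and the highest fold of Nr5a2 was 7.42 in place of 12.77. The median fold was 3.83 with unscaled tamoxifen tags in place of 4.86. Among protein-coding genes within the receptors' range of length, 52.0% carried a region in place of 45.2%. Other widths were added after seeing the data: within 1000 bp of an annotated start 0 receptor genes had a region, and within 5000 bp 12 did, in place of 4. Leaving out regions under 20 oil tags removed none of the 88, and joining Thra and Nr1d1 to 1 locus left 28. Under each setting the highest fold of every receptor gene that still carried a region stayed within its counting limits. This could hardly fail, because only the use of unscaled tags changes the fold of a region and the limits are wide. The changed values of Nr5a2 and Nr2f2 under other flanks belong to other regions. No paired analysis was possible because each treatment has 1 library, and for the same reason no library could be left out. Depth limits single regions: 3 of the 88 rest on 2 or fewer tamoxifen tags.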
